A study of Mus musculus with 16 samples.

Results

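The p53 target genes described here form a given list of 35 genes: Trp53, which encodes p53, genes that p53 is known to act on or that feed back on it, and the neighbouring genes Cdkn2a and Cdkn2b, whose products act on p53 or on cyclin-dependent kinases and which are not p53 targets in the strict sense. Members were found by symbol in each of 3 deposited tables. All 35 were listed in the mouse kidney fibroblast (MKF) table of 18288 genes, 34 in the embryonic stem cell (ESC) table of 23083 genes, where Fas was not among the rows used, and 33 in the embryonic fibroblast (MEF) table of 21615 genes, where Gdf15 and Pmaip1 were not. All members in a table passed the filter on low values (a mean of at least 1 over its libraries), and with a mean of at least 10 were 34 in ESCs, 31 in MEFs and 35 in MKFs.

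The study examined transcriptional adaptation, in which a mutated gene's related genes change expression, with 16 RNA-seq libraries of mouse cells in 8 groups of 2. The ESC groups were wild type, a knockout (KO) of Actb and a deletion of the whole Actb locus. MEFs were wild type, Actg1 KO or carried a deletion of the whole Actg1 locus. MKFs were Kindlin-2 KO or Kindlin-2 floxed, the floxed cells being the control. Actb and Actg1 encode cytoplasmic actins, and Kindlin-2, the product of Fermt2, activates integrins at sites of cell adhesion. The labels give no treatment, time point or animal age for any group, and the 2 libraries of a group carried only a number. Nothing says that they came from separate cultures, so every p-value rests on differences between libraries that may be technical.

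p53 is a transcription factor that is held low by the ubiquitin ligase Mdm2 and its partner Mdm4, and that is stabilised by DNA damage, oncogene activity and other stress. Once active it binds response elements near its targets and raises genes for cell cycle arrest (above all Cdkn1a, which encodes the kinase inhibitor p21), for cell death (Bax, Bbc3, Pmaip1, Fas) and for repair and metabolism, and it also raises Mdm2 and so limits itself. Cultured cells carry this pathway in different states: ESCs tolerate p53 with little arrest, and fibroblasts kept in culture often lose or bypass it.

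Values were normalised read counts, that is, reads per gene scaled by 1 factor for each library and rounded to whole numbers. Estimated read totals ran from 12720000 to 22820000 in ESCs, from 19960000 to 24470000 in MEFs and from 14980000 to 17160000 in MKFs. The disrupted genes were lower in their mutants. Actb read 36364 and 34140 in wild-type ESCs, 23650 and 22707 in Actb KO and 2372 and 2336 in the locus deletion. Actg1 read 5737 and 5672 in wild-type MEFs, 1004 and 1026 in Actg1 KO and 25 and 15 in the locus deletion. Fermt2 read 3078 and 3142 in floxed MKFs and 1251 and 1240 in the KO.

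The labelled cell types were compared with marker genes. ESC libraries summed to between 33182 and 38524 over 6 pluripotency genes, and MEF libraries to between 32984 and 139808 over 6 fibroblast genes. The MKF libraries went against their label: 4 of 6 fibroblast markers were in the table and summed to 21 to 84, with Col1a1 at 49 and 64 in floxed and 10 and 8 in KO cells. Over the 5 of 6 kidney epithelial markers in the table, floxed libraries summed to 4154 and 4280. The KO libraries summed to 10935 and 10886. In floxed cells Epcam and Cdh1 added little to the sums, as their values given further below show. The cells are called MKFs here only because the labels do. Sums over macrophage and blood markers were 970 to 2038 in ESCs, 43 to 89 in MEFs and 162 to 264 in MKFs, and over endothelial markers 1170 to 2057, 25 to 116 and 0 to 7. Fibroblast markers summed to 52 to 143 in ESCs, and kidney epithelial markers to 7518 to 12666 in ESCs, mainly from Cdh1 and Epcam, and to 12 to 19 in MEFs.

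Sequences that match the p53 response element lie close to the start of some of these genes, and the closest matches, those with at most 1 mismatch, are shown. RefSeq windows from 250 bases before to 50 bases after a gene's start (build GRCm38.p6) were at hand for 26 of the 35 members, in 36 windows. The windows were searched for the p53 response element, taken as 2 abutting decamers of the consensus with no spacer, a pattern that reads the same on both strands. With at most 1 mismatch, it was in 29 of 32851 windows over all genes (0.0883%) and in 2 of the 36 member windows (5.56%), those of Ccng1, a cyclin that recruits a phosphatase to Mdm2, and of Cdkn1a. The 250 bases before each start are given 5′ to 3′ on the gene's strand, with the matching element in capitals.
Ccng1, chr11:40755287-40755536, minus strand: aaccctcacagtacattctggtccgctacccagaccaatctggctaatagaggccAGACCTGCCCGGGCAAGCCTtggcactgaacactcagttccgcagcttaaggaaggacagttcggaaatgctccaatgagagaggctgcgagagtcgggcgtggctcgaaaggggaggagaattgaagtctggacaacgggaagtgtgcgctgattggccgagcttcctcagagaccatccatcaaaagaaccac
Cdkn1a, chr17:29090729-29090978, plus strand: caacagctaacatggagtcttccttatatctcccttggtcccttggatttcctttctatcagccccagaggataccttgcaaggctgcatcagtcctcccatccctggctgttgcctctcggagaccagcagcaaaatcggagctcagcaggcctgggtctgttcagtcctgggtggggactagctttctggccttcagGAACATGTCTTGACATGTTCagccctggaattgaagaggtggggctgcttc
The Ccng1 element began 195 bases before the start. The Cdkn1a element began 51 bases before this start and 2841 bases before another annotated Cdkn1a start at position 29093769.

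With at most 3 mismatches the pattern was in 2067 of the 32851 windows (6.29%) and in 12 of the 36 member windows (33.3%), which belong to 11 members. Examples from the cell death genes and from Trp53 itself, each with 3 mismatches, show how far such matches depart from the Cdkn1a element.
Aen, chr7:78895937-78895956: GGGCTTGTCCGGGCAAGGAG
Bax, chr7:45467090-45467109: AGCATATCCCAGGCAAGCTT
Bbc3, chr7:16309486-16309505: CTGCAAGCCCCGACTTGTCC
Trp53, chr11:69580284-69580303: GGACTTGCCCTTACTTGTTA
A match is a description of the letters and not a binding site. No window was at hand for Trp53inp1, Pmaip1, Tnfrsf10b, Zmat3, Perp, Rrm2b, Ddb2, Xpc and Ptp4a3.

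In MKFs, the p53 target genes past the test that rose most in the Kindlin-2 KO were Cdkn1a, Trp53inp1, Ccng1, Ephx1 and Plk2. Of the 35 genes, 23 were higher and 3 were lower in Kindlin-2 KO than in floxed cells (limma, Benjamini-Hochberg adjusted p below 0.05 over 18288 genes). Over all genes tested, 24.3% were called higher and 24.9% lower. At 2-fold or more, 14 members were higher, against 9.91% of all genes, and 1 was lower, against 9.13%. The median log2 fold change of the 35 genes was 0.69 and that of all genes tested 0.01, on the log2(value + 1) scale used for every log2 fold change here. By role, all 5 feedback genes were higher, as were 8 of 12 death genes, 5 of 8 arrest genes (with the other 3 lower), 3 of 8 repair and metabolism genes, and both Cdkn2 genes.

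**Figure D1:**
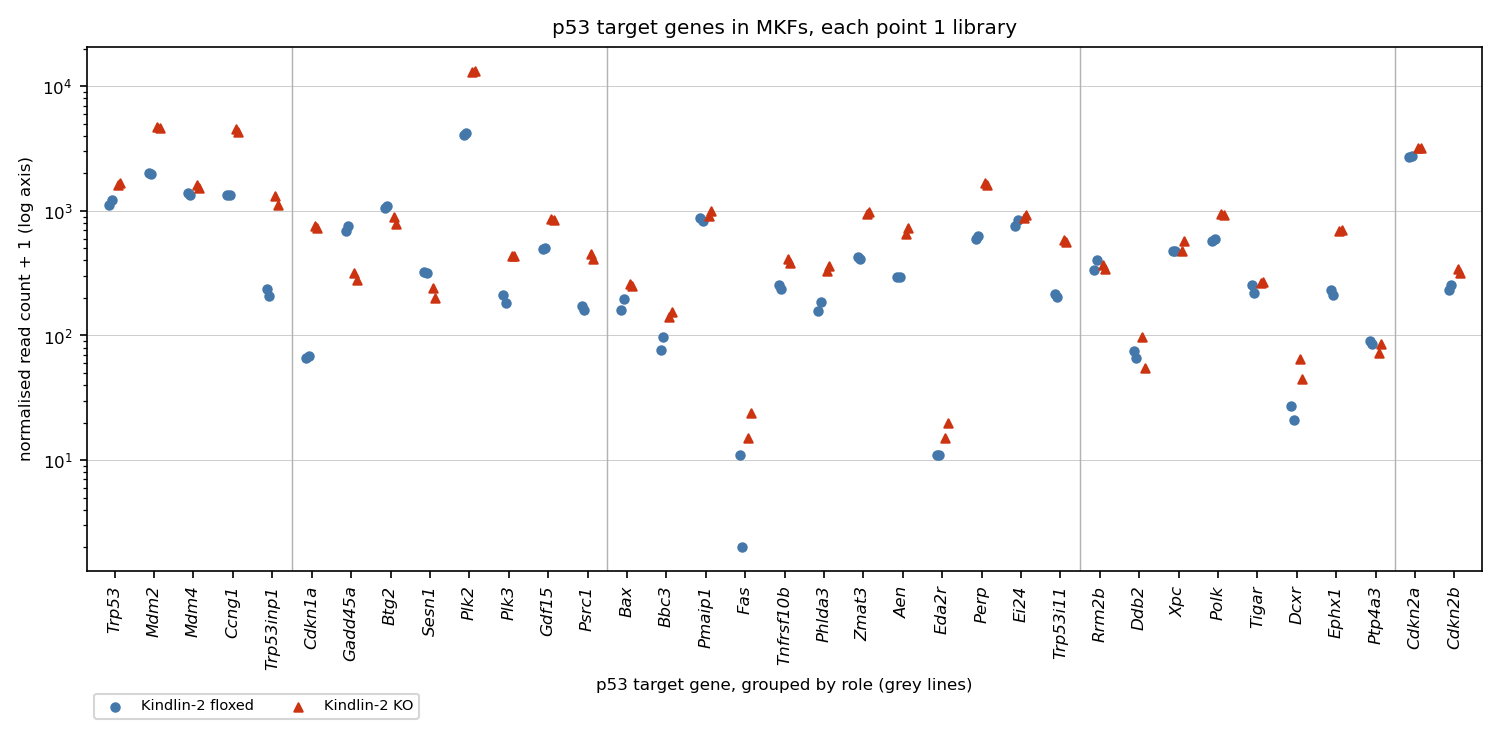
Normalised read count plus 1 (log axis) of each p53 target gene in the 2 floxed (blue circles) and 2 Kindlin-2 KO (red triangles) MKF libraries, grouped by role. Cdkn1a, from 65 and 67 to 755 and 723, shows the widest gap, and Gadd45a, Btg2 and Sesn1 lie lower in the KO.

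Trp53 itself read 1124 and 1215 in floxed and 1616 and 1662 in KO cells (log2 fold change 0.49, SE 0.055, adjusted p = 0.00199). The KO libraries lay above both floxed ones, by less than for most of the targets that were called. Mdm2, the ligase that degrades p53 and one of its classical targets, read 2007 and 1985 against 4669 and 4625 (log2 fold change 1.22, SE 0.034, adjusted p = 6.11e-05). Ccng1 read 1340 and 1348 against 4534 and 4323 (log2 fold change 1.72, SE 0.041, adjusted p = 5.06e-05), or 3.3-fold. In both genes the gap between the groups was far wider than that between libraries of a group. Trp53inp1, which helps p53 towards its death programme, read 235 and 207 against 1305 and 1120 (log2 fold change 2.45, SE 0.105, adjusted p = 0.000154). Mdm4, the Mdm2 partner that masks the p53 activation domain, read 1381 and 1332 against 1616 and 1519, a log2 fold change of 0.21 (adjusted p = 0.0246).

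Among the arrest genes, Cdkn1a (GRCm38, chromosome 17, 29090976 to 29100727, plus strand) differed most. It read 65 and 67 in floxed and 755 and 723 in KO cells (log2 fold change 3.47, SE 0.074, adjusted p = 4.76e-05), or 11.2-fold. Of the 18288 genes tested, 302 had a larger log2 fold change. Plk2, a kinase induced by p53 that acts on centriole duplication, read 4090 and 4252 against 13028 and 13309 (log2 fold change 1.66, SE 0.037, adjusted p = 4.88e-05). Psrc1, a spindle protein, read 173 and 158 against 446 and 408 (log2 fold change 1.36, adjusted p = 0.00039). Plk3, a stress-responsive kinase, read 210 and 180 against 430 and 435 (log2 fold change 1.15, adjusted p = 0.000795). Gdf15, a secreted stress cytokine, read 497 and 506 against 852 and 849 (log2 fold change 0.76, adjusted p = 0.000369). In each of these genes both KO libraries were above both floxed libraries.

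The other 3 arrest genes fell. Gadd45a, which acts in growth arrest and repair, read 687 and 751 in floxed and 315 and 280 in KO cells (log2 fold change -1.27, SE 0.086, adjusted p = 0.000455). Sesn1, a regulator of mTORC1 under stress, read 320 and 318 against 239 and 200 (log2 fold change -0.54, adjusted p = 0.0119). Sesn1 lies on chromosome 10, where the median log2 fold change (over genes whose values averaged 50 or more) was -0.38 in the same comparison, and Mdm2 and Perp rose on that chromosome. Btg2, an antiproliferative regulator of mRNA decay, read 1050 and 1091 against 895 and 791 (log2 fold change -0.35, adjusted p = 0.0159). The arrest genes thus held both the member that rose most and the member that fell most.

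Of the 12 death genes, 8 rose and the other 4 did not pass the test. Trp53i11 read 213 and 202 in floxed and 585 and 562 in KO cells (log2 fold change 1.46, adjusted p = 0.000174). Perp, a desmosome protein and p53 effector, read 590 and 631 against 1659 and 1614 (log2 fold change 1.42, adjusted p = 0.000112). Aen, an exonuclease that enhances apoptosis, read 292 and 295 against 650 and 728 (log2 fold change 1.23, adjusted p = 0.000344). Zmat3, an RNA-binding protein, read 424 and 408 against 948 and 984 (log2 fold change 1.21, adjusted p = 0.000164). Phlda3, an inhibitor of Akt, read 156 and 184 against 331 and 358 (log2 fold change 1.02, adjusted p = 0.00167). The increases of these 5 genes lay between 2.03-fold and 2.76-fold.

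In 3 further death genes the increases ran from 1.42-fold to 1.7-fold. Bbc3, which encodes the BH3-only protein Puma, read 75 and 97 against 141 and 152 (log2 fold change 0.77, adjusted p = 0.0136). Tnfrsf10b, a TRAIL death receptor, read 252 and 237 against 407 and 381 (log2 fold change 0.69, adjusted p = 0.00176). Bax, which permeabilises mitochondria, read 160 and 196 against 258 and 248 (log2 fold change 0.51, adjusted p = 0.0213). Pmaip1, which encodes the BH3-only protein Noxa, read 875 and 836 against 909 and 994 and missed the threshold (log2 fold change 0.15, adjusted p = 0.108). Fas, the death receptor, was low at 10 and 1 against 14 and 23 (log2 fold change 2.02, SE 0.872, adjusted p = 0.118). Eda2r at 10 and 10 against 14 and 19 (adjusted p = 0.119) and Ei24 at 760 and 841 against 883 and 931 (adjusted p = 0.0859) also missed it, with the KO libraries on the higher side.

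Of the 8 repair and metabolism genes, 3 rose. Ephx1, an epoxide hydrolase, read 231 and 210 in floxed and 693 and 705 in KO cells (log2 fold change 1.66, adjusted p = 0.000154). Polk, a translesion polymerase, read 570 and 595 against 948 and 924 (log2 fold change 0.68, adjusted p = 0.000594). Dcxr, a sugar reductase, read 26 and 20 against 64 and 44 (log2 fold change 1.18, adjusted p = 0.0189). Rrm2b, Ddb2, Xpc, Tigar and Ptp4a3 did not pass the test, with log2 fold changes between -0.15 and 0.18. Cdkn2a, whose single value covers both p16INK4a and the Mdm2 inhibitor ARF, read 2707 and 2754 against 3168 and 3186 (log2 fold change 0.22, adjusted p = 0.00626), and Cdkn2b read 232 and 253 against 343 and 315 (log2 fold change 0.44, adjusted p = 0.0118). Both genes lie on chromosome 4, whose median gene had a log2 fold change of 0.20 in this comparison, about the value of Cdkn2a.

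Of the 11 members with a promoter match at no more than 3 mismatches, 8 were higher, 2 (Gadd45a and Sesn1) were lower and 1 (Tigar) was not called in MKFs. Of the 15 members with a window but no such match, 11 were higher, 1 was lower and 3 were not called. The larger part of both sets was thus higher, where 24.3% of all genes tested were higher and 24.9% lower. Mdm2, Plk2 and Ephx1 are among the members without a match in the window, and bases outside the windows were not searched.

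In the rest of the pathway, 13 of 20 further reported p53 targets rose and 3 fell, with 10 of the 13 at 2-fold or more and a median log2 fold change of 0.94. Of all genes 24.3% were higher and 24.9% lower, with 9.91% higher at 2-fold or more, and the 2 lists that follow are read against the same shares. Sulf2, a heparan sulfatase, had group means of 10 in floxed and 214 in KO cells (log2 fold change 4.34, adjusted p = 0.000463). The adenylate kinase gene Ak1 went from a mean of 28 to 236 (log2 fold change 3.03), Def6 from 10 to 82.5 (log2 fold change 2.89) and Thbs1, which encodes thrombospondin 1, from 2191.5 to 8711.5 (log2 fold change 1.99). Of the 15 upstream regulators tested, 6 rose and 5 fell (median -0.06). They included the deubiquitinase gene Usp7 (log2 fold change 0.59) and Wrap53 (log2 fold change 0.78) on the higher side and the damage kinase genes Chek1 (log2 fold change -0.65) and Atm (log2 fold change -0.52) on the lower. Of 17 cell cycle genes known to be repressed downstream of p21, 4 rose and 8 fell (median -0.07). Ccnb2, a mitotic cyclin, had a log2 fold change of -1.17, and the G1/S cyclin genes Ccne2 and Ccne1 had log2 fold changes of 0.85 and 0.85.

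Markers of cell identity moved in the same comparison. Of the 5 kidney epithelial markers 4 rose, with Epcam at 26 and 11 in floxed and 3430 and 3401 in KO cells, Cdh1 at 10 and 16 against 1399 and 1531 and Cdh16 at 1510 and 1571 against 3160 and 3005. Their sum was 4154 and 4280 in floxed and 10935 and 10886 in KO libraries. The fibroblast markers in the table summed to 78 and 84 against 22 and 21, Col3a1 and Thy1 not being among the rows used. They did not share a direction: Col1a1, Col1a2 and Pdgfrb were called lower and Pdgfra higher, each at 2-fold or more. Of the macrophage and blood markers, 3 of the 3 in the table rose. Whether these shifts bear on the p53 target genes was not tested, and in bulk RNA fewer cells of a type and less RNA per cell cannot be told apart.

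With only 2 libraries a group, the MKF counts were sensitive to each of them. Leaving out KO library 1 or KO library 2 gave 13 members higher and 2 lower, and leaving out floxed library 1 or floxed library 2 gave 12 higher and 0 lower. The members called higher in all 4 of these fits were 11: Mdm2, Ccng1, Trp53inp1, Cdkn1a, Plk2, Gdf15, Zmat3, Perp, Trp53i11, Polk and Ephx1. None of the 3 genes that fell was called in all 4. These fits called 2105 to 3843 of all genes in either direction, against 8998 with all libraries.

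**Figure D2:**
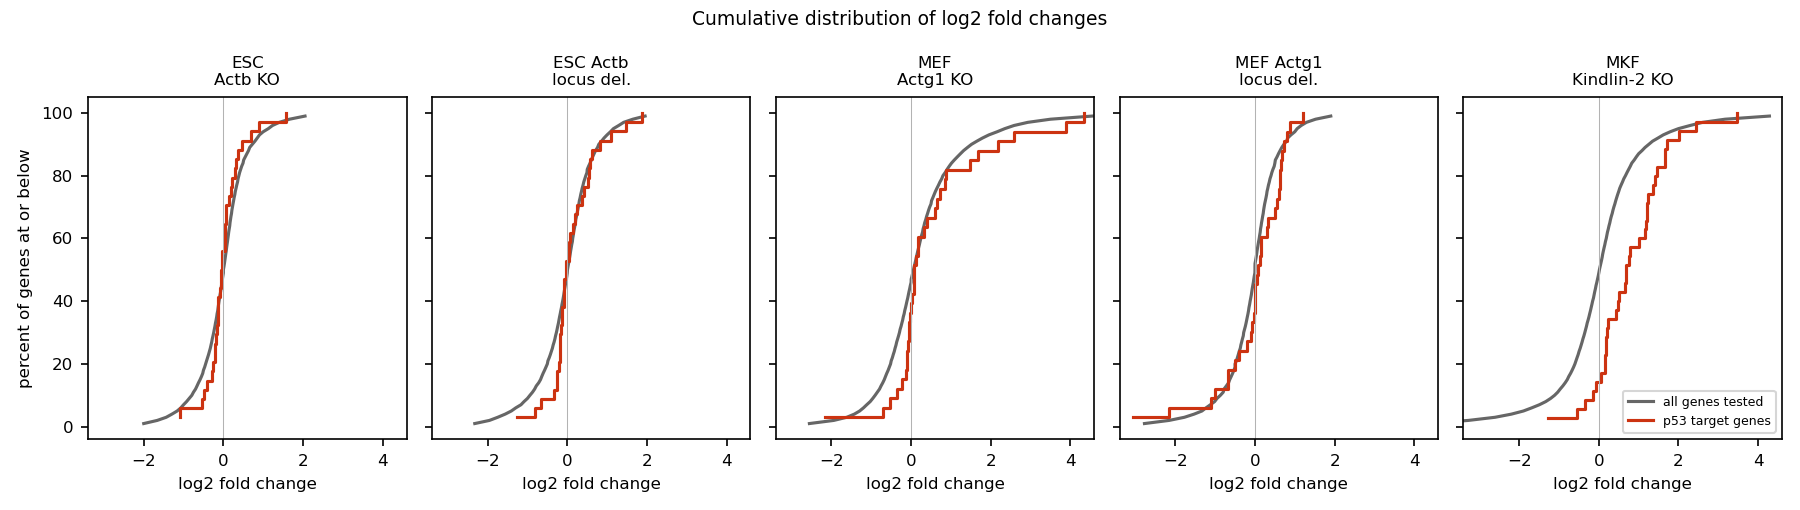
Percent of genes (y axis) at or below each log2 fold change (x axis) for the p53 target genes (red steps) and all genes tested (grey, percentiles 1 to 99), for each mutant against its control. In MKFs the target genes lie to the right, with a median of 0.69 against 0.01, and in the other 4 panels the median of the target genes lies between -0.04 and 0.08.

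In Actg1 KO MEFs, 10 of the 33 members tested were higher and 3 lower than in wild type, where 20.6% of all 21589 genes tested were higher and 19.1% lower. At 2-fold or more 6 were higher, against 10.8% of all genes, and 1 was lower, against 5.67%; these counts include Ptp4a3, Trp53i11 and Perp, which are near the detection limit. The members' median log2 fold change was 0.08, and that of all genes tested 0.06. The higher genes were Fas, Tnfrsf10b, Zmat3 and Trp53i11 of the death genes, Btg2, Gadd45a and Plk2 of the arrest genes, Trp53inp1 of the feedback genes, and Xpc and Ptp4a3.

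Trp53, Mdm2 and Ccng1 did not pass the test in Actg1 KO MEFs. Trp53 read 1617 and 1461 in wild type and 1433 and 1607 in the KO (log2 fold change -0.02, SE 0.083, adjusted p = 0.883). Mdm2 read 1526 and 1521 against 1585 and 1616 (log2 fold change 0.07, adjusted p = 0.545), and Ccng1 1204 and 1275 against 1099 and 1220 (log2 fold change -0.10, adjusted p = 0.379). Cdkn1a read 175 and 158 against 216 and 204, with both KO libraries higher and an adjusted p of 0.0539 (log2 fold change 0.33). The 20 members not called ranged from Eda2r (log2 fold change -0.53, adjusted p = 0.178) to Bbc3 (log2 fold change 0.65, adjusted p = 0.0782).

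Fas (chromosome 19, 34290666 to 34327772, plus strand) differed most. It read 17 and 14 in wild type and 325 and 345 in Actg1 KO (log2 fold change 4.35, SE 0.210, adjusted p = 6.99e-06), or 21.6-fold. The gene for smooth muscle actin, Acta2, lies 35076 bases from Fas and rose in the same libraries, from a mean of 16073.5 to 27672 (log2 fold change 0.78, adjusted p = 8.4e-05). Btg2 read 60 and 68 against 302 and 282 (log2 fold change 2.17, SE 0.139, adjusted p = 2.16e-05). Gadd45a read 97 and 107 against 330 and 324 (log2 fold change 1.67, adjusted p = 0.000343), so Btg2 and Gadd45a, which fell in the MKF mutant, rose in this one. Trp53inp1 read 47 and 48 against 153 and 117 (log2 fold change 1.47, adjusted p = 0.00956).

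Smaller increases were seen in 4 further genes. Plk2 read 2930 and 2853 against 5239 and 5319 (log2 fold change 0.87, adjusted p = 0.000142). Tnfrsf10b read 663 and 613 against 1119 and 1169 (log2 fold change 0.84, adjusted p = 0.000261). Zmat3 read 594 and 541 against 911 and 971 (log2 fold change 0.73, adjusted p = 0.000234). Xpc, the damage sensor of nucleotide excision repair, read 278 and 244 against 399 and 396 (log2 fold change 0.61, adjusted p = 0.00198).

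The genes near the detection limit are given as levels. Ptp4a3, a phosphatase, was at 1 and 1 in wild type, 32 and 26 in the KO and 0 and 0 in the locus deletion. Trp53i11 was at 0 and 0, 8 and 3, and 0 and 0 in the same order, and Perp at 4 and 3, 0 and 0, and 0 and 0. Perp and Trp53i11 were thus at 8 or less in every MEF library. Of the members that fell in the KO, Polk read 832 and 883 against 527 and 526 (log2 fold change -0.70, adjusted p = 0.000984) and Ei24, a protein of the endoplasmic reticulum, 1315 and 1399 against 1030 and 1095 (log2 fold change -0.35, adjusted p = 0.0259). Ei24 lies on chromosome 9, where the median gene had a log2 fold change of -0.32.

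In MEFs with the Actg1 locus deleted, 9 members were higher and 6 lower than in wild type, where 9.46% of all genes were higher and 12.6% lower. At 2-fold or more, 1 was higher (Fas), against 2.01% of all genes, and 2 were lower (Eda2r and Perp), against 4.21%. Perp was at 4 and 3 in wild type and 0 and 0 in the deletion, at least 1.22-fold lower with the deletion set at 3 reads per library, so its place at 2-fold or more rests on the pseudocount of 1. The members' median log2 fold change was 0.06, and that of all genes tested 0. This comparison has the same wild-type libraries as that of the KO, so the 2 are not independent.

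**Figure D3:**
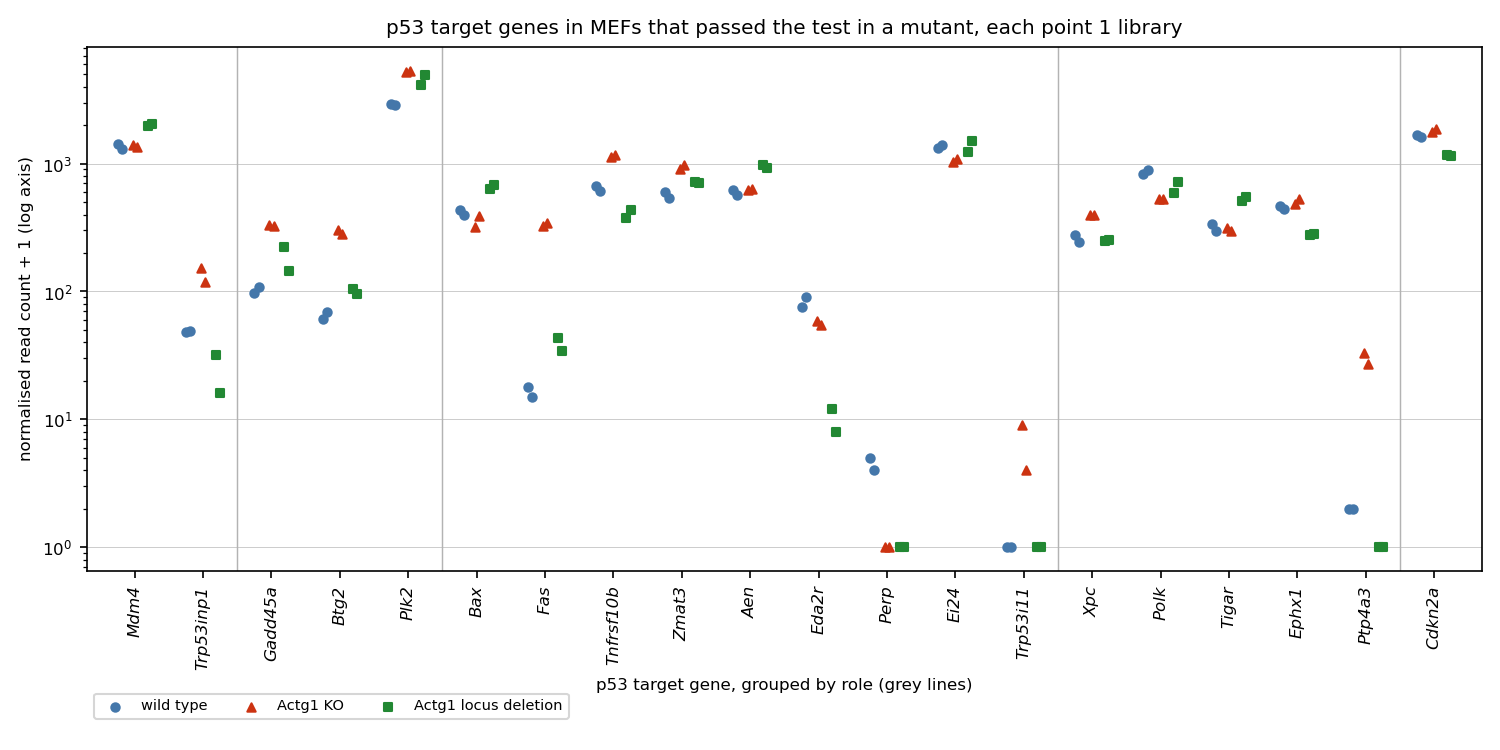
Normalised read count plus 1 (log axis) of each p53 target gene called in Actg1 KO or locus deletion MEFs, in the 2 wild-type (blue circles), 2 KO (red triangles) and 2 locus deletion (green squares) libraries. Fas rises from 17 and 14 to 325 and 345 in the KO and 42 and 33 in the deletion, and Perp, Trp53i11 and Ptp4a3 are near 0 in most libraries.

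Mdm4 read 1415 and 1306 in wild type and 1969 and 2044 in the locus deletion (log2 fold change 0.56, SE 0.067, adjusted p = 0.00106). Trp53 read 1648 and 1755 in the deletion (log2 fold change 0.15, adjusted p = 0.263), Mdm2 1370 and 1620 (log2 fold change -0.03, adjusted p = 0.839), Cdkn1a 159 and 151 (log2 fold change -0.10, adjusted p = 0.606) and Ccng1 1184 and 1299 (log2 fold change 0.00, adjusted p = 1). These 4 did not pass the test. The arrest genes called were Gadd45a at 220 and 144 (log2 fold change 0.80, adjusted p = 0.0217), Btg2 at 104 and 95 (log2 fold change 0.63, adjusted p = 0.0159) and Plk2 at 4120 and 4918 (log2 fold change 0.64, adjusted p = 0.00158).

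Death genes went both ways in the locus deletion. Fas read 42 and 33 (log2 fold change 1.22, adjusted p = 0.00536), with Acta2 at a mean of 54116 beside it (log2 fold change 1.75, adjusted p = 1.2e-05). Aen read 981 and 923 against 618 and 564 in wild type (log2 fold change 0.69, adjusted p = 0.000824), Bax 631 and 677 against 435 and 394 (log2 fold change 0.66, adjusted p = 0.00513), and Zmat3 721 and 705 (log2 fold change 0.33, adjusted p = 0.02). Eda2r, a TNF receptor family member on the X chromosome, fell from 74 and 89 to 11 and 7 (log2 fold change -3.07, SE 0.280, adjusted p = 0.000329). Tnfrsf10b read 372 and 430, below the wild-type 663 and 613 (log2 fold change -0.67, adjusted p = 0.00189). Aen and Bax lie on chromosome 7, whose median gene had a log2 fold change of 0.21, and Tnfrsf10b on chromosome 14, with a median of -0.21.

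Of the metabolic genes, Tigar, a fructose bisphosphatase, read 512 and 544 in the deletion against 339 and 295 (log2 fold change 0.74, adjusted p = 0.00173). Ephx1 read 278 and 283 against 463 and 437 (log2 fold change -0.68, adjusted p = 0.00132), and Polk 588 and 711 against 832 and 883 (log2 fold change -0.41, adjusted p = 0.0232). Cdkn2a read 1157 and 1146 against 1679 and 1604 (log2 fold change -0.51, adjusted p = 0.00108). Cdkn2a lies on chromosome 4, whose median gene had a log2 fold change of -0.49 in that comparison, about the value of Cdkn2a itself. The 18 members not called ranged from Trp53inp1 (log2 fold change -1.10, adjusted p = 0.0523) to Dcxr (log2 fold change 0.89, adjusted p = 0.194).

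Compared directly, the Actg1 KO stood higher than the locus deletion in 13 members and lower in 8, where 24.5% and 20.7% of all genes did. The widest gap with both levels well above 0 was in Fas (log2 difference 3.13, SE 0.210, adjusted p = 1.82e-05). Trp53inp1 read 153 and 117 in the KO and 31 and 15 in the deletion (log2 difference 2.57, adjusted p = 0.000498), Eda2r 58 and 54 against 11 and 7 (log2 difference 2.54, adjusted p = 0.000216) and Btg2 302 and 282 against 104 and 95 (log2 difference 1.54, adjusted p = 7.64e-05). Tnfrsf10b differed by 1.51 on the log2 scale (adjusted p = 1.12e-05). Gadd45a differed by 0.87 on the log2 scale (adjusted p = 0.00724), Xpc by 0.68 (adjusted p = 0.000955) and Cdkn1a by 0.44 (adjusted p = 0.0172). Ptp4a3 was at least 10.1-fold higher in the KO, with the deletion set at 3 reads per library.

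In other members the deletion stood higher than the KO. Bax differed by -0.89 on the log2 scale (adjusted p = 0.000429), Tigar by -0.79 (adjusted p = 0.000395), Aen by -0.61 (adjusted p = 0.000456) and Mdm4 by -0.54 (adjusted p = 0.000378). Rrm2b, a ribonucleotide reductase subunit, read 311 and 295 in the KO and 384 and 357 in the deletion (log2 difference -0.29, adjusted p = 0.0431). The remaining members called lower were Phlda3, Ei24 and Polk, with log2 differences between -0.36 and -0.25.

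In the rest of the pathway, the shares of all genes stand again beside the counts: 20.6% higher and 19.1% lower in the Actg1 KO, and 9.46% and 12.6% in the locus deletion. Of 19 further reported targets, 12 rose and 3 fell in the KO against wild type, and 3 rose and 4 fell in the deletion. Sulf2 rose from a mean of 23 to 179 in the KO (log2 fold change 2.99) and to 70 in the deletion (log2 fold change 1.65). In the KO, Sesn2, a stress-induced relative of Sesn1, rose from 104.5 to 293.5 (log2 fold change 1.48) and Lif, which encodes a cytokine, from 106.5 to 296.5 (log2 fold change 1.47). In the deletion, Sfn, which encodes 14-3-3 sigma, fell from 70.5 to 18 (log2 fold change -1.93) and Cd82 from 193 to 59.5 (log2 fold change -1.68). Of 17 upstream regulators, 2 rose and 9 fell in the KO, among them Trp63, a p53 family member (log2 fold change 2.16), and Usp7, which fell from 8757 to 3951 (log2 fold change -1.15) on chromosome 16, whose median gene had a log2 fold change of -0.85. In the deletion 1 rose and 2 fell. Of 17 cell cycle genes, 1 rose and 9 fell in the KO, and 7 rose and 2 fell in the deletion. Ccnb2 fell from 1050 to 503 in the KO (log2 fold change -1.06), and Cdc25c (log2 fold change 0.86) and Aurka (log2 fold change 0.74) rose in the deletion while Ccne2 fell from 2885.5 to 1370.5 (log2 fold change -1.07).

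Marker genes differed between the MEF groups too. The 6 fibroblast markers summed to 38222 and 34874 in wild type, 132451 and 139808 in Actg1 KO and 32984 and 33374 in the locus deletion, with Col1a1 at 84930 and 91165 in the KO. Against wild type, Col1a1, Col1a2 and Col3a1 were called higher and Pdgfrb lower in the KO. In the deletion Col1a2, Col3a1 and Pdgfra were called lower. Of 6 pluripotency markers 2 were in the table, and Sox2, at 44 and 32 in wild type, read 1326 and 1306 in the KO and 0 and 0 in the deletion. The endothelial markers summed to 116 and 111 in wild type, 82 and 97 in the KO and 27 and 25 in the deletion. Kdr was lower in both mutants (log2 fold changes -2.06 in the KO and -3.41 in the deletion), while Tek was higher in the KO (log2 fold change 2.64). Csf1r, a macrophage receptor gene, read 6 and 11 in wild type and 27 and 53 in the KO (log2 fold change 2.09). Their part in the differences among p53 target genes was not tested.

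Leaving out a library lowered the MEF counts of both mutants against wild type. In the KO against wild type, 7 members were higher and 1 was lower without KO library 1, 8 and 1 without KO library 2, and 8 and 2 without either wild-type library. Those fits called 20.3% to 27.2% of all genes in either direction, against 39.7% with all libraries. Btg2, Plk2, Fas, Tnfrsf10b, Zmat3, Ptp4a3 and Perp were called in all 4 fits. Of these, Ptp4a3 and Perp were near the detection limit. In the locus deletion, 3 to 7 members were higher and 3 to 5 lower, and Mdm4, Aen, Tigar, Eda2r, Ephx1 and Cdkn2a were called in all 4. Those fits called 1775 to 3276 of all genes (8.22% to 15.2%), against 4755 with all libraries. The lowest counts came without wild-type library 2 (3 higher) and without wild-type library 1 (3 lower, with 4 higher).

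**Figure D4:**
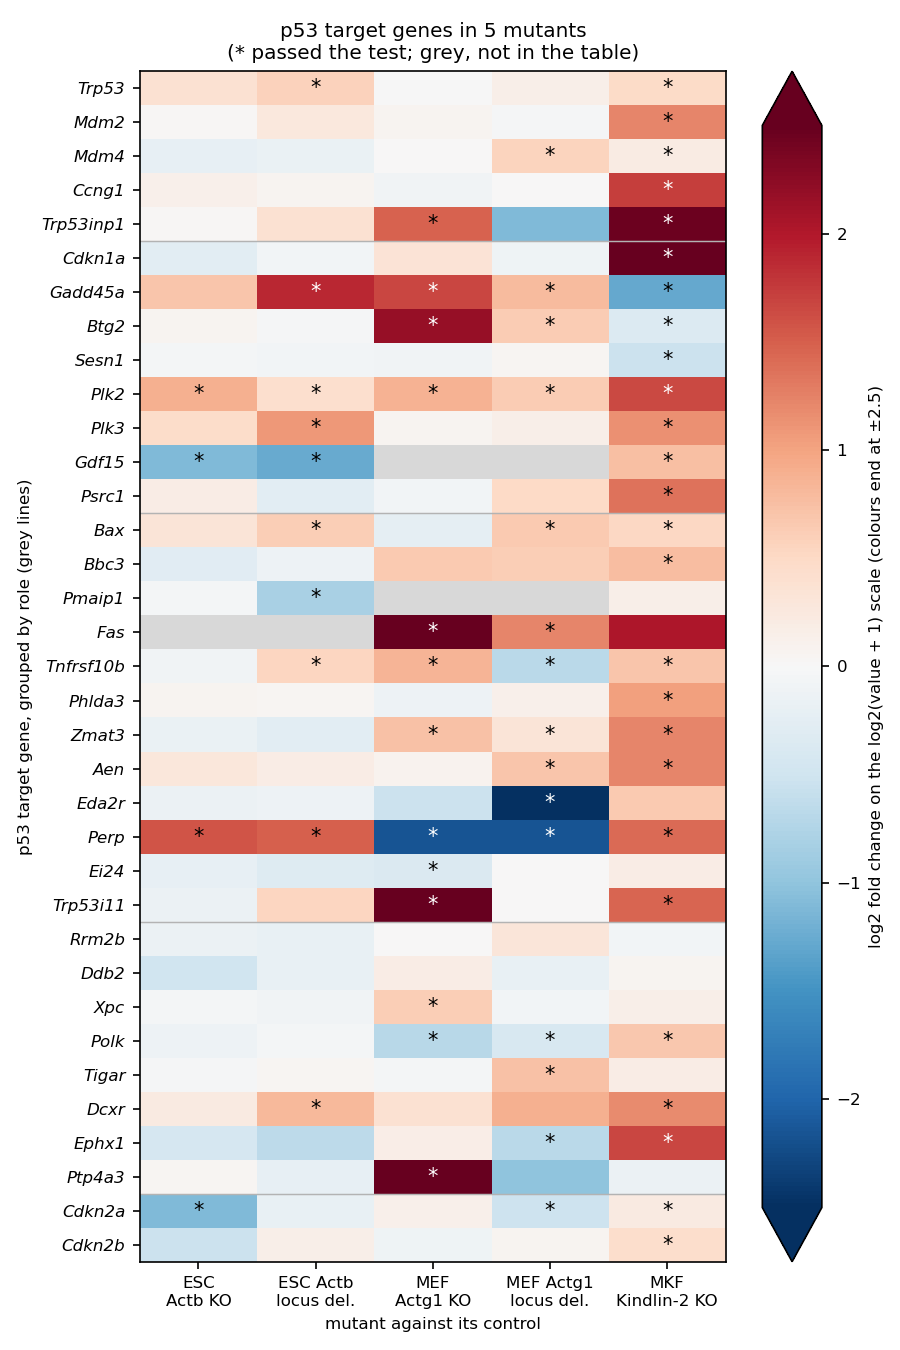
Log2 fold change (colour, ending at 2.5 either way) of each p53 target gene in 5 mutants against their controls, with asterisks where the adjusted p was below 0.05 and grey where a gene was not among the rows used. The MKF column holds 26 asterisks, 23 of them on higher genes, and the MEF values of Perp, Trp53i11 and Ptp4a3 rest on levels near 0.

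In Actb KO ESCs, 2 of 34 members were higher and 2 lower than in wild type, where 2.44% of the 23054 genes tested were higher and 2.44% lower. The members' median log2 fold change was -0.04, against 0 for all genes. Perp read 98 and 102 in wild type and 318 and 283 in the KO (log2 fold change 1.58, SE 0.150, adjusted p = 0.00146). Plk2 read 537 and 527 against 983 and 983 (log2 fold change 0.88, SE 0.105, adjusted p = 0.00428). Cdkn2a fell from 268 and 194 to 116 and 97 (log2 fold change -1.10, SE 0.192, adjusted p = 0.0187). Gdf15 fell from 87 and 134 to 47 and 53 (log2 fold change -1.10, SE 0.251, adjusted p = 0.0461), on chromosome 8, whose median gene had a log2 fold change of -0.35.

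Cdkn1a, Mdm2 and Ccng1 were well expressed in ESCs and did not pass the test. Cdkn1a read 595 and 637 in wild type, 460 and 564 in the KO (log2 fold change -0.27, adjusted p = 0.303) and 611 and 561 in the locus deletion (log2 fold change -0.07, adjusted p = 0.797). Mdm2 read 2622 and 3032, 2830 and 2947 (log2 fold change 0.03, adjusted p = 0.92), and 3040 and 3723 (log2 fold change 0.25, adjusted p = 0.244). Ccng1 read 4178 and 5154, 5000 and 5158 (log2 fold change 0.13, adjusted p = 0.591), and 4795 and 4885 (log2 fold change 0.06, adjusted p = 0.803). For these 3 genes the gaps between group means were of the order of the gaps between libraries of a group. The 30 members not called in the KO ranged from Cdkn2b (log2 fold change -0.54, adjusted p = 0.228) to Gadd45a (log2 fold change 0.69, adjusted p = 0.152).

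With the Actb locus deleted, 8 members were higher and 2 lower than in the same wild-type libraries, where 5.19% and 6.0% of all genes were. The median log2 fold change of the members was -0.03. Trp53 read 1442 and 1420 in wild type and 2218 and 2039 in the deletion (log2 fold change 0.57, SE 0.099, adjusted p = 0.0093). In the KO Trp53 read 1800 and 1904 (log2 fold change 0.37, adjusted p = 0.0756, or 0.0466 with the replicate number as a block). Gadd45a read 61 and 45 against 162 and 238 (log2 fold change 1.89, SE 0.238, adjusted p = 0.00271), and Plk3 144 and 136 against 307 and 292 (log2 fold change 1.09, SE 0.141, adjusted p = 0.00289). Plk2 read 686 and 732 (log2 fold change 0.41, adjusted p = 0.0408) and Perp read 261 and 304 (log2 fold change 1.49, adjusted p = 0.00104).

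Among the other death genes, Bax read 455 and 378 in wild type and 634 and 639 in the locus deletion (log2 fold change 0.62, adjusted p = 0.0199). Tnfrsf10b read 382 and 348 against 547 and 510 (log2 fold change 0.53, adjusted p = 0.0263). Pmaip1 fell from 657 and 509 to 386 and 279 (log2 fold change -0.82, adjusted p = 0.0365), so the mitochondrial apoptosis genes did not share 1 direction. Dcxr read 47 and 39 against 71 and 81 (log2 fold change 0.81, adjusted p = 0.0493). Gdf15 fell to 42 and 47 (log2 fold change -1.26, adjusted p = 0.0161), beside a chromosome 8 median of -0.40. With the replicate number as a block, 4 members were lower in place of 2, with Ei24 (adjusted p = 0.0404) and Ephx1 (adjusted p = 0.0447) added. The 24 members not called ranged from Ephx1 (log2 fold change -0.65) to Trp53i11 (log2 fold change 0.54, adjusted p = 0.0913).

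Between the ESC mutants, 2 members were higher in the KO than in the locus deletion and 4 were lower, where 2.56% and 2.32% of all genes were. Gadd45a differed by -1.20 on the log2 scale (adjusted p = 0.0273), Cdkn2a by -0.91 (adjusted p = 0.0334), Plk3 by -0.63 (adjusted p = 0.0416) and Tnfrsf10b by -0.62 (adjusted p = 0.0257). Plk2 differed by 0.47 on the log2 scale (adjusted p = 0.0421) and Psrc1, at 1182 and 1260 against 867 and 923, by 0.45 (adjusted p = 0.0489). With the replicate number as a block, Pmaip1 (adjusted p = 0.0041) and Trp53i11 (adjusted p = 0.0442) also passed.

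The other pathway lists are read against the same shares, 2.44% of all genes in each direction in the KO and 5.19% higher and 6.0% lower in the deletion. In the KO 1 of 20 further targets rose, Thbs1 with means of 3 and 48, and 1 of 17 cell cycle genes fell, Aurka (log2 fold change -0.51, adjusted p = 0.039). Of 17 upstream regulators limma called 0, with 3 at an unadjusted p below 0.05. In the locus deletion 3 of 20 further targets rose and 1 fell, 4 of 17 upstream regulators rose and 1 fell, and 3 of 17 cell cycle genes fell. Thbs1 rose to a mean of 24, Cd82 from 8 to 35.5, and Steap3, an iron reductase, fell from 284.5 to 120.5. Hipk2, a kinase of p53, had a log2 fold change of 0.78 and Trp73, a p53 relative, of 0.87. With the replicate number as a block, 2 upstream regulators were called in the KO, Rpl5 (adjusted p = 0.0422) and Crebbp (adjusted p = 0.0421). In the deletion the block gave 6 further targets higher and 2 lower, with Sesn2, Ak1 and Lif added on the higher side and Gls2 on the lower, and Bub1 added as 1 higher cell cycle gene.

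Markers of other cell types moved in ESCs as well, while none of the 6 pluripotency markers was called in either mutant against wild type. The macrophage and blood markers summed to 1103 and 970 in wild type, 2038 and 1942 in the KO and 1390 and 1276 in the deletion. Laptm5, a lysosomal protein gene of blood cells, was called higher in the KO (log2 fold change 0.92), and Cd68 in both mutants (log2 fold changes 1.19 and 1.16). The endothelial markers summed to 2057 and 1991 in wild type, 1438 and 1502 in the KO and 1170 and 1229 in the deletion. Pecam1 was lower in both mutants (log2 fold changes -0.49 and -0.89), and Tek in the KO, at a mean of 49.5 against 100 in wild type (adjusted p = 0.0248). In each mutant, 2 of the 4 endothelial markers had both mutant libraries above both wild-type ones, without being called. Cdh1, which encodes E-cadherin, was lower in both (log2 fold changes -0.53 and -0.77), and the fibroblast markers Pdgfrb and Thy1 were lower in the deletion (log2 fold changes -1.62 and -1.73). The part of these shifts in the p53 target gene differences was not tested.

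The ESC calls rest on few libraries. Leaving out either wild-type or either KO library left 0 members called by limma in the KO against wild type, with 3 to 7 higher and 2 to 4 lower at an unadjusted p below 0.05; at most 4 of all 23054 genes were called in those fits. In the locus deletion, 0 were called without wild-type library 1 or 2, 2 were higher without deletion library 1 and 1 without deletion library 2. Between 49 and 339 of all genes were called in the deletion fits, against 2580 with all libraries. No member call in ESCs was made in all 4 such fits of its comparison.

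Levels per kilobase of exon set the members' order within the controls. In wild-type ESCs Ccng1 was highest at 1330 normalised reads per kilobase, ahead of Trp53inp1 at 672 and Mdm2 at 556. Cdkn2a led in wild-type MEFs at 1400 and in floxed MKFs at 2330, followed by Plk2 at 644 and 929. Cdkn1a stood at 173 in wild-type ESCs, 46.9 in wild-type MEFs and 18.6 in floxed MKFs. The tables were normalised apart, so these levels are given side by side and not tested.

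Reads of some members may include those of a neighbour. Exons of Cdkn1a, Gadd45a, Plk3, Ei24, Rrm2b, Ddb2 and Tigar overlap exons of another annotated gene on the opposite strand. Whether counting used the strand is not given in the sources used here, so such reads cannot be told apart. Exons of Bax and Ephx1 overlap exons of another annotated gene on the same strand, where use of the strand would not separate the reads.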

How the data were processed

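The 16 libraries were made from total RNA isolated with an RNA kit and an on-column DNase step and prepared with a stranded total RNA kit, per the labels' protocols. Tools listed in the submitters' processing notes, with no role or order, are STAR 2.5.3a, featureCounts 1.6.0, Subread, DESeq2 1.14.1, DESeq and FastQC, and the builds are mm10 and GRCm38; settings, strand use and filters are not given in the sources used here. The authors deposited 1 table of whole-number scores for each cell type: low values rise in steps whose size is fixed within a library, as reads scaled by 1 factor and rounded would, so they are called normalised read counts here. In each library, 1 read was worth 0.715 to 1.3 of these units, and library sums ran from 15565648 to 22094490. Depth was estimated from those steps and not read from a count table. The lowest row maximum was 4 in 2 tables and 5 in the third, so rows of very low genes were not in them.

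Because the values are not counts, the test was limma 3.58.1 (R 4.3.3) on log2(value + 1), with group means, all groups of a table in 1 fit, a trend in the prior variance and a filter at a mean of 1, two-sided, with Benjamini-Hochberg adjustment over all genes tested and a threshold of 0.05. The script was tested on simulated data. The 35 members, their roles, the pathway and marker lists and the tests were chosen with earlier results of these data known. Named in full were Trp53, Mdm2, Cdkn1a and Ccng1 and, per comparison, up to 12 called members with the largest change; of each other list, up to 4 called genes. The text goes beyond this rule where it gives values for further called members. Gene symbols came from GENCODE M21, which matched 23045, 21573 and 18257 identifiers in ESCs, MEFs and MKFs. Promoter windows came from RefSeq.

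Same-numbered ESC libraries deviated together (correlations of deviations 0.678, 0.349 and 0.492 over 11369 genes), so same numbers may mark pairs. This comes from the values; the labels give only the numbers. ESC counts and p-values come from the fit without the block unless a sentence names it, and blocked values are given where they change a call. Alternatives tried were a pseudocount of 5, a mean of at least 10, no filter, 2 rescalings, no trend, a replicate block, only the libraries compared, and leaving out each library.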

Additional observations from a re-analysis of the deposited data

Results flagged for a closer look

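Some members had both KO libraries on one side of the shared wild-type libraries and both locus deletion libraries on the other, with a KO against deletion difference past the threshold in limma. In ESCs these were Psrc1 (log2 difference 0.45, adjusted p = 0.0489) and Tnfrsf10b (-0.62, adjusted p = 0.0257). Tnfrsf10b read 342 and 346 in the ESC KO against 382 and 348 in wild type, a narrow gap that was not called. In MEFs, Tnfrsf10b was higher in the KO and lower in the deletion, with a log2 difference of 1.51 (adjusted p = 1.12e-05), the opposite sign to that in ESCs. Trp53inp1 differed by 2.57 (adjusted p = 0.000498), Ephx1 by 0.84 (adjusted p = 0.000136) and Cdkn2a by 0.65 (adjusted p = 9.81e-05) on the log2 scale. The median log2 difference on chromosome 4, which holds Trp53inp1 and Cdkn2a, was 0.59. Bax differed by -0.89 (adjusted p = 0.000429) and Phlda3 by -0.25 (adjusted p = 0.0238), both higher in the deletion. Ptp4a3 was at least 10.1-fold higher in the KO (adjusted p = 0.000108), with the deletion at 0 in both libraries. Wild type was at 1 and 1, so the place of the deletion below wild type rests on values near the detection limit. Between KO and deletion, limma called 4.88% of all genes in ESCs and 45.2% in MEFs. How many of all genes had the whole pattern was not counted.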

How the results depend on the processing

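For MKFs, the counts of 23 members higher and 3 lower ranged over 19 to 25 and 2 to 3 under every alternative that kept all libraries, and over 12 to 13 and 0 to 2 with 1 library left out. ESC counts depended on the pooled spread. Without a trend in the prior variance the members called in the Actb KO against wild type were 1 higher and 0 lower, in the locus deletion 2 and 0, and between the mutants 0 and 0. With only the libraries compared, 0 were lower in the KO, 2 were higher and 0 lower in the deletion, and 0 and 0 differed between the mutants. With 1 library left out, 0 members were higher and 0 lower in the KO, 0 to 2 were higher and 0 lower in the deletion, and 0 and 0 differed between the mutants. Rescaling without the most abundant genes left 0 members higher in the KO than in the deletion.

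In MEFs, members higher in the locus deletion fell to 5 without the trend and to 4 with only the libraries compared, with 3 to 7 higher and 3 to 5 lower when 1 library was left out. In the KO against wild type 7 to 8 were higher and 1 to 2 lower when 1 library was left out. Members lower in the KO than in the deletion were 5 after rescaling without the most abundant genes, 4 without the trend, 5 with only the libraries compared and 4 to 6 with 1 library left out. That rescaling moved the median log2 difference of all genes between the MEF mutants from 0.07 to 0.16, and members higher in the KO than in wild type from 10 to 14.

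The signs of small changes of Trp53, Mdm2 and Ccng1, which were not called, depended on the setting. After rescaling without the most abundant genes, log2 fold changes were -0.033 for Mdm2 in the ESC KO, 0.066 for Trp53 in the MEF KO and -0.0087 for Ccng1 in the MEF deletion. With 1 library left out, in ESCs Mdm2 ranged from -0.070 to 0.14 and Ccng1 from -0.021 to 0.28 in the KO, and Ccng1 from -0.091 to 0.21 in the deletion. In MEFs Trp53 ranged from -0.10 to 0.064 in the KO, and in the deletion Mdm2 from -0.15 to 0.089 and Ccng1 from -0.065 to 0.068. Mdm2 in the MEF KO against the deletion ranged from -0.018 to 0.22. The causes of these shifts were not tested.

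With the replicate number as a block, 4 members were lower in the ESC locus deletion in place of 2, and no member called in ESCs lost its call. In MEFs and MKFs the numbers did not pair libraries (correlations of same-numbered deviations of -0.302, -0.211 and 0.214 in MEFs and -0.095 in MKFs). There the block removed the calls of Bax in MKFs (adjusted p = 0.0516) and of Perp in the MEF deletion (adjusted p = 0.051) and Rrm2b between the MEF mutants (adjusted p = 0.0673), and added Trp53inp1 in the MEF deletion (adjusted p = 0.0372).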
